A study of Homo sapiens with 5 samples.

Results

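Epithelial-mesenchymal transition (EMT) is the program by which cells joined in a sheet loosen their junctions and take on a motile, matrix-producing state. Its usual readouts in cancer cells were followed here as 10 genes, matched by symbol among 64837 counted entries. CDH1, EPCAM and ESRP1 mark the epithelial state, CDH2, VIM and FN1 the mesenchymal state, and ZEB1, ZEB2, SNAI1 and SNAI2 encode transcription factors that repress epithelial genes. E-cadherin (CDH1) ties neighbouring epithelial cells together, and a switch from E-cadherin to N-cadherin (CDH2) is a classical sign of the transition. ZEB and SNAI proteins bind E-box motifs in the promoters of epithelial genes such as CDH1, while ESRP1 directs the epithelial pattern of splicing.

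The cells were NCI-H209, an established line from a human small-cell lung cancer (SCLC), a neuroendocrine tumour that often grows as floating clusters and spreads early to the brain. In 2 libraries the tumour cells had been kept for 24 h with human brain microvascular endothelial cells (HBMECs) in a Transwell chamber, where a membrane parts the cell types and they share medium, and in 3 control libraries they were untreated. All libraries came from the same line grown in RPMI-1640 with serum, so they speak for 1 tumour, and RNA of the tumour cells was sequenced after removal of rRNA with a kit that keeps the strand. The paper grew the HBMECs with added Nu-serum and does not say whether controls had an empty insert. The labels do not say whether replicates were separate cultures, so p-values measure the spread between these libraries only. In such bulk RNA, fewer cells expressing a gene and less RNA per cell cannot be told apart.

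The libraries held 15457071 to 19157348 counts on the strand of the genes, at which 3 counts equal 0.154 to 0.198 CPM, a count scaled by library size so that libraries can be compared. Most of the variance, 64.7%, lay along a principal component between the groups. Along the next one, with 18.3%, control replicate 1 scored 43.9 and control replicates 2 and 3 scored -12.3 and -25.9. Reads that did not map were 8.13% to 8.48% in control and 15.9% and 16.8% in the co-cultured libraries, and reads on no single gene were 50.2% to 53.8% in control and 43.0% and 43.6% after co-culture. What these differences did to the results was not tested. Of 16 neuroendocrine SCLC markers, 15 passed the filter on low counts, while CHGA had at most 1 count in a library. In the test described below, 6 rose (40%) and 1 fell (6.67%), against 18.4% and 15.0% of all genes tested. The counts held 64837 entries, against 58780 genes in GENCODE 29. Whether the near absence of CHGA lies in the cells or in how reads were mapped and counted was not tested. Of 23 endothelial markers, 9 had at most 3 counts in every library, PLVAP, MMRN1 and ECSCR were at 0 in all libraries, and the summed level was 18.5 to 31.8 CPM in control against 24.1 and 25.2 CPM after co-culture. Part of the sum in control replicates 1 and 2 came from FLT1, NOS3, TEK and KDR, which were counted mainly there, as given below.

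Between the groups, 6809 of 20360 genes tested (33.4%) had an adjusted p under 0.05 (edgeR, quasi-likelihood test, Benjamini-Hochberg). Of all genes tested, 18.4% were higher and 15.0% lower after co-culture. The count fell to 2734 without co-cultured replicate 1 and to 3023 without co-cultured replicate 2, and with upper-quartile scaling the share of higher genes among those called moved from 55.1% to 43.9%. All 10 EMT genes passed the filter. CDH1, ESRP1 and FN1 rose, no member fell, and 7 did not pass the test. The 30.0% of members that rose thus stood beside 18.4% of all genes, with a median log2 fold change of 0.16 over the members and -0.033 over all genes tested. The groups of libraries did not overlap for 5 of 10 members, against 59.4% of all genes tested. The study's criterion, a fold change over 1 in absolute value and a p below 0.05, was read here as a log2 fold change and an unadjusted p, since its methods state neither. So read, it was met by 5.44% of all genes upward, among them FN1 alone of the members, and by 5.01% downward, with no member.

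**Figure D1:**
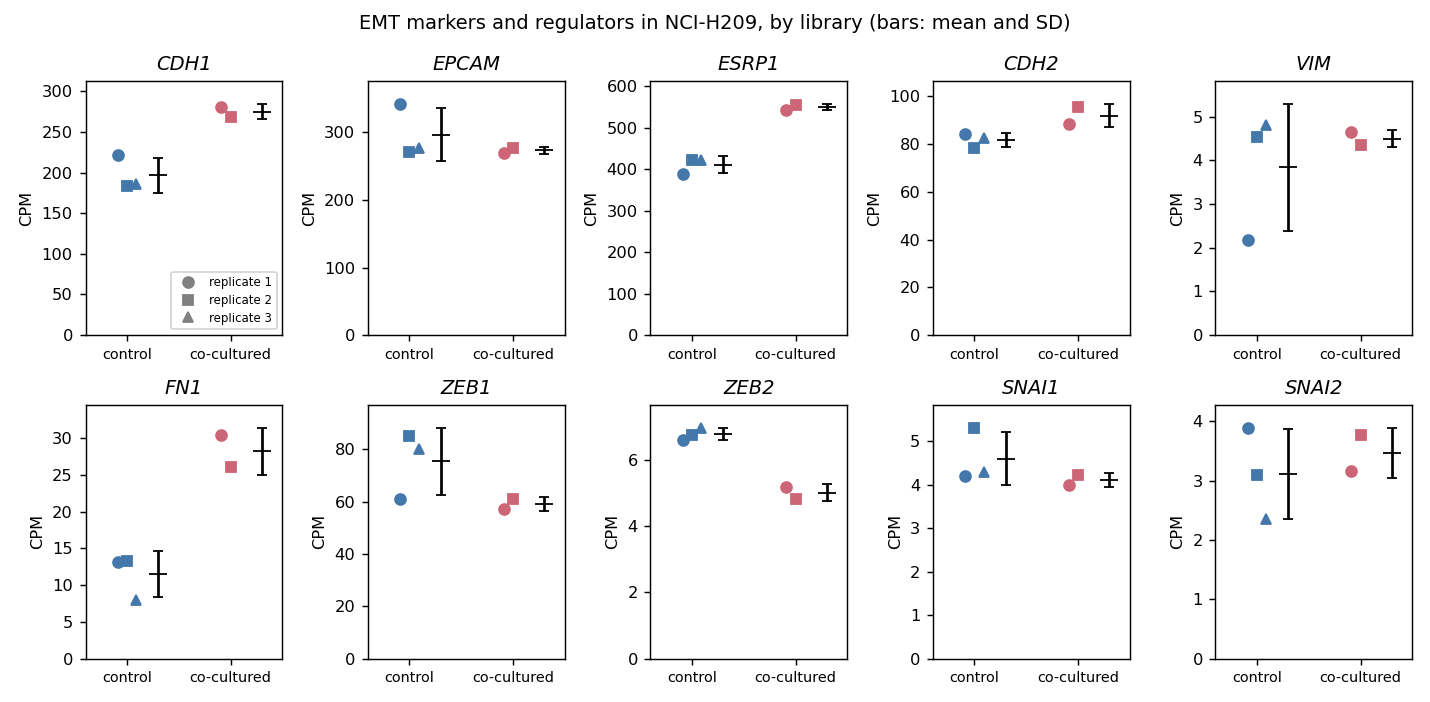
Level of each EMT gene in CPM (y axis, from 0) in the 3 control and 2 co-cultured libraries, with 1 point per library, its shape giving the replicate, and black bars for the mean and SD. CDH1, ESRP1, FN1 and, by a small margin, CDH2 stand higher in both co-cultured libraries, ZEB2 stands lower in both, and VIM, SNAI1, SNAI2, EPCAM and ZEB1 overlap between the groups.

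The promoter stretches below are shown for FN1, the member that changed most, and for ZEB1, which had the highest level per kb of the repressor genes. They are the RefSeq promoter windows on GRCh38, cut to the bases that lie before the RefSeq start and outside the GENCODE transcripts of the member, and each reads 5′ to 3′ on the gene's strand. Capitals mark a cyclic AMP response element (TGACGTCA, its own reverse complement) in FN1 and an E-box (CAGGTG, or CACCTG on the other strand) in ZEB1. Windows were matched for 5 of 10 members, CDH2, VIM, FN1, ZEB1 and ZEB2.
FN1, chr2:215436173-215436318, minus strand: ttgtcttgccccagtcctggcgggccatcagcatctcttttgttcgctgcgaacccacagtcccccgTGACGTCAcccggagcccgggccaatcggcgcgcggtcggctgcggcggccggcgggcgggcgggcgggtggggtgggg
ZEB1, chr10:31318167-31318416, plus strand: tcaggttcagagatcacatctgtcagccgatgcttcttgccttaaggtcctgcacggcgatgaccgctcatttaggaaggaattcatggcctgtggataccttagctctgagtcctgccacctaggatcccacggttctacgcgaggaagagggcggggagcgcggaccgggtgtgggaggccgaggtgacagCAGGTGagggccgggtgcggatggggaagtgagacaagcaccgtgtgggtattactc
Among the 12 windows of the 5 members, 1 held TGACGTCA, that of FN1, and 2 held CAGGTG, both of ZEB1. Of 35116 RefSeq promoter windows of 300 bases, with no chromosome left out, 1.85% held TGACGTCA and 20.6% held CAGGTG on either strand. The ZEB1 stretch also lies in exons of ZEB1-AS1, which is transcribed from the opposite strand. A match of letters is a description of the window and no evidence that a factor was bound there.

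Of the epithelial members, CDH1 and ESRP1 rose by 1.39-fold and 1.34-fold after co-culture, and EPCAM did not pass the test. CDH1 (ENSG00000039068.18, chr16:68737225-68835548, plus strand) was counted at 222, 184 and 186 CPM in control replicates 1 to 3 and at 281 and 268 CPM in co-cultured replicates 1 and 2. Both co-cultured libraries were above every control library. The mean of the 3 control libraries was 197 ± 21.5 CPM (SD), that of the 2 co-cultured libraries 275 ± 9.34 CPM, and the log2 fold change was 0.48 with a standard error (SE) of 0.10 (adjusted p = 0.00552). Without control replicate 1, the highest of the controls, it was 0.58, and without co-cultured replicate 1 it was 0.45 with an adjusted p of 0.0647.

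ESRP1 (ENSG00000104413.16, chr8:94641074-94707466, plus strand), the splicing factor of epithelial cells, stood at 388, 423 and 422 CPM in control and at 543 and 554 CPM after co-culture. The groups were far apart against SDs of 19.7 CPM in control (n = 3) and 7.66 CPM after co-culture (n = 2). The log2 fold change was 0.42 (SE 0.080, adjusted p = 0.00408), and without co-cultured replicate 2 it was 0.41 with an adjusted p of 0.0590. The counts are per gene, so whether the splicing of its targets moved with it cannot be read from them.

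EPCAM (ENSG00000119888.10, chr2:47345158-47387601, plus strand) encodes the epithelial cell adhesion molecule, a surface protein used to capture carcinoma cells from blood. It was at 342, 271 and 277 CPM in control and at 270 and 277 CPM after co-culture, so that the groups overlapped and control replicate 1 was the single high library. The log2 fold change was -0.12 (SE 0.11, adjusted p = 0.443). It was 0.0015 without control replicate 1, which set the sign of the difference.

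FN1, which encodes the matrix glycoprotein fibronectin, rose the most of the 10 genes, by 2.46-fold on its own strand. FN1 (ENSG00000115414.18, chr2:215360440-215436172, minus strand) was counted at 13.2, 13.3 and 7.94 CPM in control, from 249, 241 and 155 counts, and at 30.4 and 26.0 CPM after co-culture, from 557 and 393 counts. The lowest co-cultured library was well above the highest control library. Control averaged 11.5 ± 3.09 CPM (SD, n = 3) and the co-cultured libraries 28.2 ± 3.17 CPM (SD, n = 2). The log2 fold change was 1.30 (SE 0.20, adjusted p = 0.00143), at the 96.6th percentile of the log2 fold changes of all genes tested. With any library left out the log2 fold change was 1.09 to 1.42.

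Over the exons of FN1, however, most reads lay on the opposite strand, and these changed the other way. They came to 37.9, 33.6 and 32.7 CPM in control and to 24.2 and 28.3 CPM after co-culture, that is 75.2% of the reads over FN1 in control and 47.8% after co-culture. In a fit with the opposite strand of the members added as rows of their own, which was chosen after the values were seen, the opposite-strand reads of FN1 fell by 0.41 on the log2 scale (SE 0.11, adjusted p = 0.0215). When reads were counted without regard to strand, the log2 fold change of FN1 was 0.29 with an adjusted p of 0.0752. The call for FN1 thus rests on the strand. ATIC, an enzyme gene of purine synthesis next to the 3′ end of FN1 and on the opposite strand, does not overlap FN1 in GENCODE 29. Its own log2 fold change was 0.25 (SE 0.10, adjusted p = 0.0813). The transcript annotated on the opposite strand at the FN1 promoter, AC012462.3, had at most 2 counts in a library. Which transcript gave the opposite-strand reads was not tested.

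**Figure D2:**
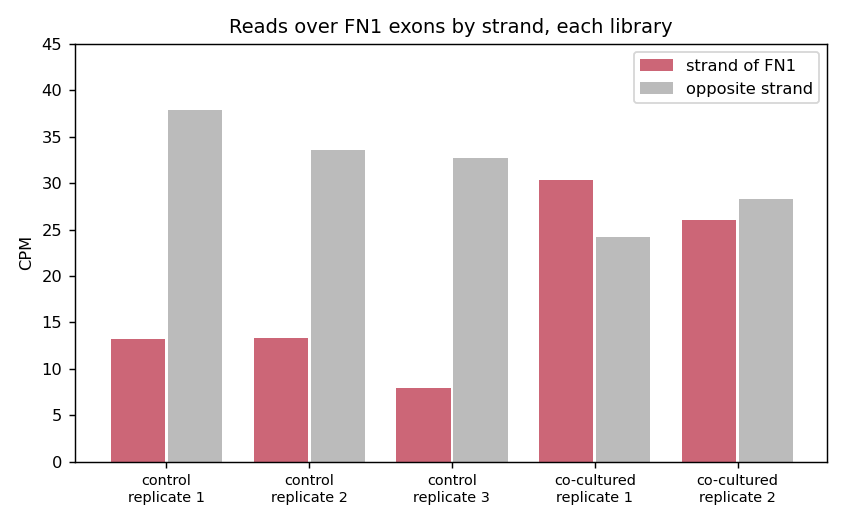
Reads over the exons of FN1 in CPM (y axis, from 0) in each of the 5 libraries, with red bars for the strand of FN1 and grey bars for the opposite strand. The red bars are 7.94 to 13.3 CPM in control and 30.4 and 26.0 CPM after co-culture, while the grey bars are 32.7 to 37.9 CPM in control and 24.2 and 28.3 CPM after co-culture.

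CDH2 and VIM, the other mesenchymal members, did not pass the test. CDH2 (ENSG00000170558.8, chr18:27950966-28177446, minus strand), encoding the N-cadherin of neural and mesenchymal cells, was at 84.0, 78.2 and 82.4 CPM in control and at 88.4 and 95.3 CPM after co-culture. Both co-cultured libraries were above control, by a margin near the spread within the groups. The log2 fold change was 0.17 (SE 0.078, adjusted p = 0.122), and without control replicate 1 it was 0.19 with an adjusted p of 0.0182. VIM (ENSG00000026025.15, chr10:17228259-17237593, plus strand) encodes vimentin, the intermediate filament of mesenchymal cells. It had 41, 82 and 94 counts in control and 85 and 66 counts after co-culture, or 2.18, 4.53 and 4.81 CPM against 4.65 and 4.36 CPM. Control replicate 1 was low and the other 4 libraries lay between 4.36 and 4.81 CPM, and the log2 fold change of 0.23 (SE 0.31, adjusted p = 0.604) became -0.049 without that library.

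None of the 4 transcription factor genes passed the test, and the ZEB genes came nearest to it. ZEB1 (ENSG00000148516.21, chr10:31318495-31529814, plus strand) stood at 60.8, 85.1 and 80.1 CPM in control and at 57.1 and 60.8 CPM after co-culture. Control replicate 1 was level with the higher co-cultured library, and the other control libraries were above both. The log2 fold change was -0.35 (SE 0.13, adjusted p = 0.0694). It was -0.48 without control replicate 1 (adjusted p = 2.13e-05), and -0.26 without control replicate 2. With upper-quartile scaling, under which the median of all genes was itself -0.11, ZEB1 was at -0.44 (adjusted p = 0.0424).

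ZEB1-AS1, a non-coding gene that shares the promoter region of ZEB1 on the opposite strand, had 452, 501 and 611 counts in control and 426 and 294 counts after co-culture. All control libraries were higher than both co-cultured libraries, with a log2 fold change of -0.37 (adjusted p = 0.0649). Reads on the strand opposite to ZEB1 over its exons were 5.92% of the total there. VIM-AS1 had 4, 10 and 11 counts against 15 and 5 counts, a log2 fold change of 0.41 (adjusted p = 0.621), and ZEB2-AS1 had at most 1 count in a library and was not tested.

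ZEB2 (ENSG00000169554.19, chr2:144364364-144524583, minus strand) had 124, 122 and 136 counts in control and 95 and 73 counts after co-culture. In CPM the control libraries lay close together at 6.59, 6.75 and 6.96, and the co-cultured libraries at 5.19 and 4.82 were both lower. The log2 fold change was -0.43 (SE 0.17, adjusted p = 0.0720). It was called without control replicate 1 (-0.45, adjusted p = 0.0401) and with upper-quartile scaling (-0.51, adjusted p = 0.0431).

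SNAI1 and SNAI2 encode the zinc-finger repressors Snail and Slug, the classical repressors of CDH1. SNAI1 (ENSG00000124216.3, chr20:49982999-49988886, plus strand) had 79, 96 and 84 counts in control and 73 and 64 counts after co-culture, and its log2 fold change was -0.16 (SE 0.20, adjusted p = 0.562). SNAI2 (ENSG00000019549.11, chr8:48917604-48921740, minus strand) had 73, 56 and 46 counts in control and 58 and 57 counts after co-culture, and its log2 fold change was 0.15 (SE 0.26, adjusted p = 0.682). For both genes the groups overlapped. With at most 96 counts in a library, the standard errors of both were larger than those of CDH1 and ESRP1, and a small change would not have been detectable.

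**Figure D3:**
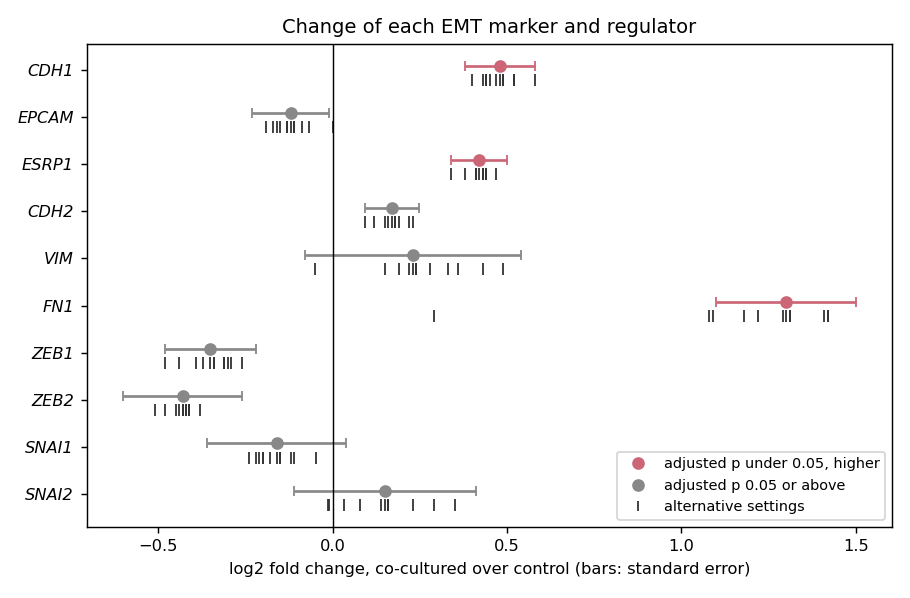
Log2 fold change of each EMT gene, co-cultured over control (x axis), with a circle and standard error from the fit of all genes and, below it, ticks for the 12 alternative settings. CDH1, ESRP1 and FN1 (red) lie above 0 under all of them, with the lone FN1 tick at 0.29 from counts without regard to strand, while ticks of EPCAM, VIM and SNAI2 reach or cross 0.

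Compared as levels per kb of exon, the 3 epithelial members were the highest of the 10 genes in both groups. In control, EPCAM was at 118 ± 15.7 CPM per kb, ESRP1 at 84.3 ± 4.04 and CDH1 at 31.9 ± 3.48 (SD, n = 3), and CDH2 followed at 16.5 ± 0.596. ZEB1 at 8.71 ± 1.48 CPM per kb was the highest of the transcription factors, and SNAI1 was at 2.73 ± 0.363. SNAI2 (0.917 ± 0.225), VIM (0.745 ± 0.280) and FN1 (0.664 ± 0.178) overlapped in their libraries and have no order, and ZEB2 was the lowest at 0.270 ± 0.00742. VIM was thus far below EPCAM in every library, and CDH2 stood below CDH1 and above all other members that are not epithelial markers.

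After co-culture ESRP1 (113 ± 1.57 CPM per kb, SD, n = 2) and EPCAM (109 ± 2.04) changed places, with libraries at 111 and 114 against 107 and 110. FN1 was at 1.63 ± 0.183 CPM per kb, with both libraries above those of SNAI2 and VIM, which it had overlapped in control. The level of CDH1 per kb was 1.81 to 2.12 times that of CDH2 in the control libraries and 2.25 and 2.55 times that in the co-cultured libraries. Lengths are those of all annotated exons joined, 17.3 kb for FN1 and 25.1 kb for ZEB2, which lowers the level per kb of genes with many isoforms.

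**Figure D4:**
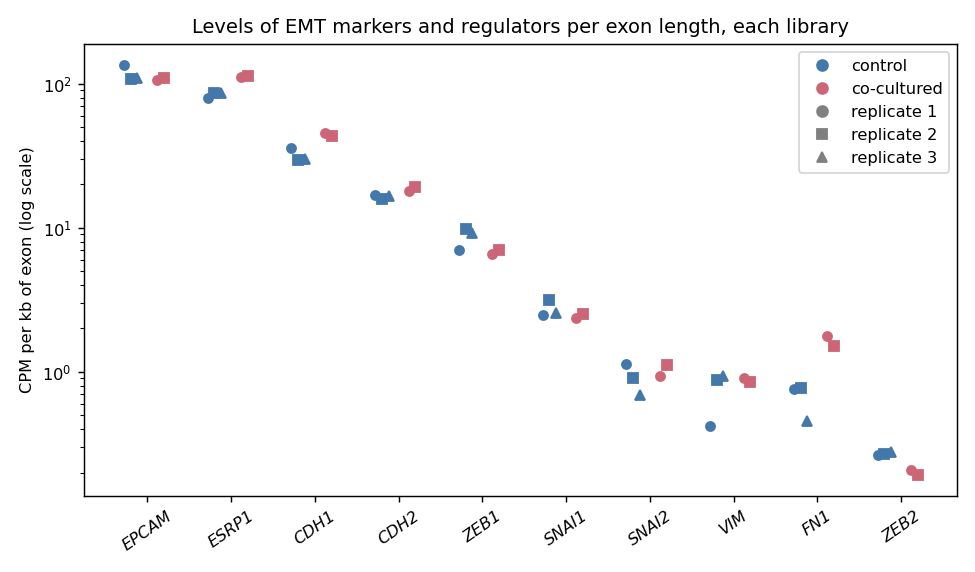
Level of each EMT gene in CPM per kb of exon (y axis, log scale) in every library, control in blue and co-cultured in red, ordered by the control mean. EPCAM, ESRP1 and CDH1 stand highest in both groups, and FN1 overlaps SNAI2 and VIM in control and lies above both after co-culture.

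The wider EMT program, 201 genes in 11 lists, moved in both directions. Of 162 genes tested, 43 rose (26.5%) and 23 fell (14.2%), against 18.4% and 15.0% of all genes tested, and the median log2 fold change was 0.12. The 66 calls became 34 in number without co-cultured replicate 1 and 33 without co-cultured replicate 2. The counts below are descriptions of each list beside that background.

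Genes of epithelial junctions and surface rose more often than they fell, 9 against 3 of 31 tested, with a median log2 fold change of 0.21. PRSS8, the membrane protease prostasin, rose by 1.45 (adjusted p = 6.7e-05), from 11.6 ± 1.22 to 31.7 ± 0.888 CPM. CTNNA1, the α-catenin that ties cadherins to actin, rose by 0.73 (adjusted p = 0.000186), and CLDN7, a tight junction claudin, by 0.70 (adjusted p = 0.00235). Among those that fell were JUP (plakoglobin, -0.32) and F11R (junctional adhesion molecule A, -0.28).

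The epithelial regulators had the highest median of the lists, 0.31, with 6 of 13 higher and 1 lower. ELF3, an epithelial transcription factor, rose by 1.04 (adjusted p = 0.000244), from 90.2 ± 10.2 to 186 ± 24.3 CPM, and KLF5 rose by 0.64 (adjusted p = 0.000283). The zinc-finger genes OVOL1 and OVOL2, known as counterparts of ZEB1, went opposite ways. OVOL1 rose by 1.31 (adjusted p = 0.000778), from 4.01 ± 0.264 to 9.93 ± 1.8 CPM, while OVOL2 fell by 0.55 (adjusted p = 0.00723), from 40.9 ± 4.59 to 28.0 ± 2.81 CPM.

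Among the 4 keratins of simple epithelia, KRT7 rose by 0.33 (adjusted p = 0.0400) and KRT8 fell by 0.64 (adjusted p = 0.0169). KRT8 had 383 ± 91.4 CPM in control, and 22.3% of the reads over its exons were on the opposite strand. Of the intermediate filaments other than keratins, 5 were tested and NES, the nestin of neural progenitors, fell by 1.01 (adjusted p = 0.0215). GFAP, named after its values were seen, was under the filter and counted mainly in control replicate 3. It had 0, 2 and 79 counts in control and 3 and 1 after co-culture, with 84.3% of the reads over its exons on the opposite strand.

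The matrix genes split, with 7 higher and 5 lower of 29 tested and a median of 0.0024. VCAN, the proteoglycan versican, rose by 2.22 (adjusted p = 0.000580), from 1.63 ± 0.663 to 7.64 ± 1.15 CPM. IGFBP3, a secreted binder of insulin-like growth factors, rose by 1.60 (adjusted p = 0.000187), and SERPINE2, a secreted protease inhibitor, by 1.14 (adjusted p = 0.000204). The basement membrane collagen genes COL4A2 and COL4A1 fell by 1.01 and 0.80 (adjusted p = 0.00724 and 0.0304), and FBN1, for the microfibril protein fibrillin, by 0.67 (adjusted p = 0.0402). Summed over the 37 genes of the list, the level was 129 to 148 CPM in control and 207 and 196 CPM after co-culture. Large parts of this rise came from SERPINE2 (26.1 to 57.5 CPM) and IGFBP3 (8.4 to 25.5 CPM). The sum thus does not describe the list as a whole, whose median log2 fold change was 0.0024.

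Several genes of fibroblasts and other stromal cells were counted mainly in control replicates 1 and 2. They are named after their values were seen. DCN (decorin) had 27 and 39 counts there, 0 in control replicate 3 and 3 and 1 after co-culture, and LUM (lumican) had 20, 19 and 0 against 0 and 2. PDGFRB had 34, 30 and 0 counts against 1 and 2, with 43.2% of reads over its exons on the opposite strand, and AXL had 29, 17 and 0 against 0 and 0, with 67.6%. Other matrix genes, also named after their values were seen, differed in this. COL3A1 shared the pattern, with 22, 22 and 3 counts against 3 and 9. So did POSTN, with 11, 15 and 3 counts against 0 and 0, which is among the 5 matrix genes counted above as lower. COL1A2 had 33, 23 and 3 counts against 16 and 22. SPARC had 59, 65 and 53 counts against 40 and 28, and BGN 50, 39 and 41 against 41 and 30. FN1 was higher in control replicates 1 and 2 than in control replicate 3, but highest after co-culture. Its log2 fold change was 1.42 with either control replicate 1 or 2 left out. What part the pattern of control replicates 1 and 2 had in the other results was not tested.

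Surface and contractile genes of mesenchymal cells included the largest rises of the 11 lists. ITGA5, the integrin subunit that pairs with ITGB1 as the fibronectin receptor, had 15, 35 and 46 counts in control and 497 and 259 counts after co-culture. Its log2 fold change was 3.70 (SE 0.32, adjusted p = 9.3e-05). ITGAV, another fibronectin-binding subunit, rose by 0.58 (adjusted p = 0.000943), and for their partner ITGB1 the log2 fold change was 0.30 (adjusted p = 0.0741). Both of these were named after their values were seen. CAV1 (caveolin 1) rose by 2.85 (adjusted p = 0.000193), from 0.444 ± 0.0345 to 3.25 ± 0.265 CPM. PLS3, an actin bundling protein, rose by 1.45 (adjusted p = 0.000111), and TAGLN, an actin binding protein of smooth muscle, fell by 1.20 (adjusted p = 0.0151). TAGLN was at 5.1, 9.01 and 10.7 CPM in control and at 3.83 and 3.37 CPM after co-culture. Of the reads over its exons, 30% were on the opposite strand. In all 6 of 16 tested rose and 1 fell, with a median of 0.28. CAV1 and ITGA5 are also expressed by endothelial cells. Of the 11 endothelial markers tested, ESAM rose by 2.14 (adjusted p = 0.00666) and ICAM2 by 0.45 (adjusted p = 0.0367), none fell at an adjusted p under 0.05, and the median was -0.093. PECAM1 had 14, 10 and 3 counts in control against 18 and 11 after co-culture, and CDH5 had 11, 8 and 4 against 7 and 11. VWF had 75 to 159 counts in a library and ERG 41 to 70. FLT1 (30, 28 and 0 counts against 1 and 1), NOS3 (41, 39 and 4 against 3 and 7), TEK (31, 24 and 0 against 6 and 3) and KDR (37, 27 and 2 against 12 and 4) were counted mainly in control replicates 1 and 2, and FLT1 and NOS3 met the unadjusted criterion downward. Whether RNA of HBMECs had a part in these rises was not tested.

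Among 10 other cadherins tested, 1 rose and 1 fell. CDH13, the cadherin without a transmembrane part, fell by 1.41 (adjusted p = 0.000424), from 12.6 ± 0.683 to 4.76 ± 1.02 CPM.

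Other EMT transcription factors and cofactors also moved both ways, 6 higher and 5 lower of 23 tested. FOXC1, a forkhead factor, rose by 1.45 (adjusted p = 2.2e-05), from 19.1 ± 0.435 to 52.4 ± 0.0697 CPM. The corepressor gene CTBP2, whose product is recruited by ZEB proteins, rose by 0.79 (adjusted p = 0.000190), with 33.4% of its reads on the opposite strand, and the Polycomb gene BMI1 rose by 0.65 (adjusted p = 0.00178). ID1 and ID2 encode inhibitors of E-box binding helix-loop-helix factors. ID1 fell by 1.53 (adjusted p = 1.7e-05), from 122 ± 4.16 to 42.4 ± 1.94 CPM, and ID2 by 0.96 (adjusted p = 0.000989). TGIF1, a repressor in TGF-β signalling, fell by 0.67 (adjusted p = 0.00241). TWIST1, a further widely used EMT factor gene, had 2 to 6 counts in a library and was not tested, and it too was named after its values were seen.

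The TGF-β input, which can start EMT in epithelial cells, held 4 higher and 4 lower of 21 tested, with a median of -0.16. TGFB1, the ligand, rose by 1.63 on its own strand (adjusted p = 0.00113), from 4.37 ± 1.32 to 13.5 ± 2.47 CPM, but 87.9% of the reads over its exons were on the opposite strand. TGFB2, a second ligand gene, fell by 1.43 (adjusted p = 0.00486), from 4.59 ± 1.14 to 1.68 ± 0.325 CPM. LTBP3, which holds latent TGF-β in the matrix, fell by 1.25 (adjusted p = 6.8e-05), and SMAD6, an inhibitory SMAD, by 1.64 (adjusted p = 0.000433). SKIL, which restrains SMAD transcription, rose by 0.70 (adjusted p = 0.00121), and BAMBI, a decoy receptor, by 0.35 (adjusted p = 0.0166).

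Of 8 splicing regulators that act beside ESRP1, 3 rose and 1 fell. The rises were those of MBNL2 (0.54, adjusted p = 0.000915), QKI (0.28, adjusted p = 0.0323) and MBNL1 (0.24, adjusted p = 0.0377), and the fall was that of PTBP2 (-0.30, adjusted p = 0.0125). QKI and the MBNL genes are known for mesenchymal or differentiated splicing patterns, so they rose here together with the epithelial splicing factor ESRP1.

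**Figure D5:**
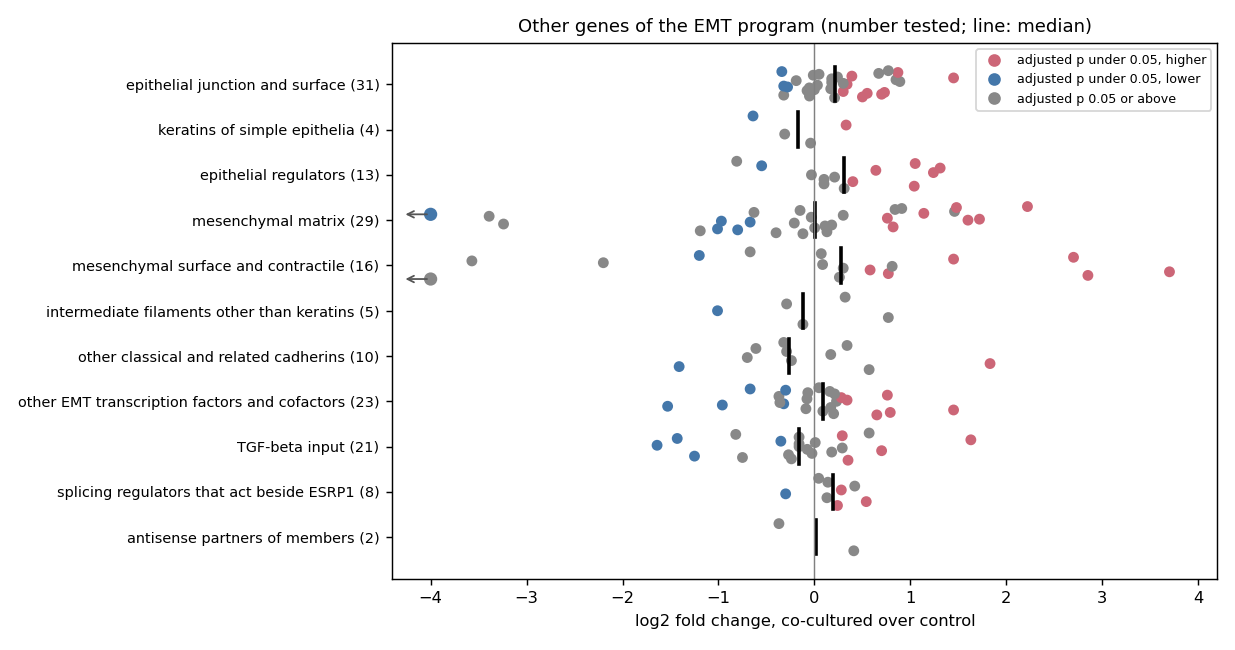
Log2 fold change, co-cultured over control (x axis), of every tested gene in the 11 EMT lists, with the number tested after each name, red for higher and blue for lower genes, and a black line at the list's median. Medians lie between -0.26 and 0.31, and POSTN and AXL, both at 0 counts in the co-cultured libraries, are drawn at the left edge with arrows.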

How the data were processed

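The authors deposited, for each of 5 libraries, counts of reads per gene without regard to strand and for each strand. The submitters' processing notes name CASAVA 1.8, STAR 2.6.1b, DESeq2 and GRCh38. The counts of the library's strand were used (92.3% to 93.1% of stranded reads), with gene models of GENCODE 29. Rows for reads on no gene stayed out. A further deposited table holds the authors' fold changes and p-values and was used only for gene symbols. Genes were filtered with filterByExpr, scaled by TMM and compared with edgeR 4.0.16 (R 4.3.3), quasi-likelihood test, Benjamini-Hochberg over 20360 genes. An exact permutation test of 3 against 2 libraries cannot go below 0.1. CPM are TMM-scaled, log2 is base 2, and folds are on the fitted scale. Steps were tested on simulated data. The members and lists were chosen with earlier results of these data known. Named were the members, their antisense partners and, per list and direction, the 3 called genes with the smallest p and a mean of at least 1 CPM. The result of 1 gene under this rule is not reported here.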

Additional observations from a re-analysis of the deposited data

How the results depend on the processing

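The alternatives were median-ratio and upper-quartile scaling, other filters, DESeq2 1.42.0, unstranded counts, a replicate block and each library left out. With 1 library left out, the genes called ranged from 2734 to 9897 (higher 1749 to 5295, lower 985 to 4602), the members called from 2 to 6 (higher 2 to 4, lower 0 to 2), and the wider EMT genes called from 33 to 93 (higher 25 to 60, lower 8 to 33). Without control replicate 1, CDH2 was the added riser and ZEB1 and ZEB2 fell. The log2 fold changes then ranged from 0.43 to 0.58 for CDH1, -0.17 to 0.0015 for EPCAM, 0.38 to 0.44 for ESRP1, 0.12 to 0.23 for CDH2, -0.049 to 0.43 for VIM, 1.09 to 1.42 for FN1, -0.48 to -0.26 for ZEB1, -0.48 to -0.38 for ZEB2, -0.22 to -0.047 for SNAI1 and -0.0098 to 0.35 for SNAI2, which was negative without control replicate 3. Upper-quartile scaling called 5 members, 2 of them lower, ZEB1 at -0.44 and ZEB2 at -0.51. A filter of at least 1 count in any library called 4 members, 1 of them lower, ZEB1 at -0.35 (adjusted p = 0.00539). Unstranded counts took FN1 to 0.29. With a replicate block 4824 genes were called, FN1 was at 1.08 (adjusted p = 5.71e-05), SNAI2 at -0.012, and no member changed its call. The deviations of libraries with the same replicate number had correlations across genes of -0.114 and -0.067, and only 2 pairs exist. The deviations of the 2 co-cultured libraries are mirror images, so these values cannot decide whether the numbers pair the libraries. The main fit took the libraries as unpaired. Where not shown by fewer libraries or strands, the cause was not tested. VIM, SNAI1, SNAI2 and ZEB2 had at most 136 counts in a library, which limits what changes could be detected for them.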
